A study of Homo sapiens with 8 samples.

Results

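The 51 genes described here encode the cell-surface and secreted proteins through which a cell holds and cuts its surrounding matrix: 18 integrin alpha subunits, 8 integrin beta subunits, 21 matrix metalloproteinases (MMPs) and the 4 tissue inhibitors of metalloproteinases (TIMPs). They were taken by gene symbol from the 17953 genes that the authors' deposited table of transcript stability covers with RefSeq mRNA accessions, and they stand on 56 of its 20865 accessions so named. The rule used symbols and not measured values, although the families were picked with earlier results of these data known. Where a gene had more than 1 accession, their log2 ratios were averaged.

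Integrins are receptors made of an alpha and a beta subunit, and the pairing sets which matrix protein or cell the receptor binds. MMPs are zinc-dependent proteases that are made as inactive proenzymes and cut collagens, laminins and other matrix proteins once activated, and TIMPs are their secreted inhibitors. In invasive breast cancer cells these families are known for adhesion to, and passage through, basement membrane and collagen.

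The cells were MDA-LM2, a lung-metastatic line derived from the human breast cancer line MDA-MB-231. They were transfected by lipofection with 1 of 2 siRNAs against TARBP2, a double-stranded RNA-binding protein and Dicer partner, or with the control called siControl in the titles and mock-transfected in the design text. RNA was taken 48 h later, either from untreated cells (0 h) or from cells that had spent 18 h in alpha-amanitin at 10 µM, a blocker of RNA polymerase II. Each of the 4 groups had 2 arrays, and in each knock-down group the 2 arrays carried the 2 different TARBP2 siRNAs.

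Between 15541 and 17619 of 47321 probes were detected per array, at a detection p-value under 0.01. No file links a probe to a gene, so neither the level of any integrin, MMP or TIMP transcript, nor that of TARBP2, nor markers of the cell type could be read from the arrays. What is known of each gene is its entry in the authors' deposited table: a log2 ratio of transcript stability, knock-down over control, which has neither replicates nor a test. By its heading, a ratio above 1-fold stands for higher stability in knock-down than in control cells, and only ratios past a threshold are classed as stabilized in the authors' deposited table. The table has no detection status, so a ratio is also listed for genes whose transcripts these cells may not make. The arrays measured bulk RNA, in which fewer cells carrying a transcript and less of it per cell cannot be told apart.

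A scale for the error of such ratios was taken from the arrays as a whole. For each probe and replicate number, the 0 h to 18 h change of control cells was subtracted from that of knock-down cells, both from the authors' normalized signals. The error SD of the mean of the 2 replicates was 0.12 on the log2 scale over the 13995 probes detected on all 8 arrays. It was 0.19 over the 27528 probes detected on no array. The knock-down replicates carried different siRNAs, so any difference between the siRNAs is part of this error SD. Of probes detected on no array, 5.22% had a difference above 0.32 and 5.76% below -0.32 on the log2 scale, so a value past the thresholds used below also occurs without a detected signal. How the authors computed their ratios is not stated in the labels or files, so these figures are a guide to their error and not a measurement of it. Whether detection moved with the ratio of any of the 51 genes was not tested, because probes carry no gene names.

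Among the 51 genes, ratios below 1-fold reached further than ratios above it. The upper threshold used here is a log2 ratio of 0.32, where the class of stabilized transcripts begins in the authors' deposited table, and the lower threshold is its mirror image, -0.32 or 0.8-fold. Of the 51 genes, 8 (15.7%) lie below the lower threshold, where 5.06% of all 17953 genes do, in the authors' deposited table. Another 3 (5.88%) lie above the upper threshold, against 8.95% of all genes, in the authors' deposited table. By single accessions, 8 of 56 lie below and 4 above, against 5.56% and 9.71% of all named accessions, in the authors' deposited table. Their median log2 ratio is -0.029, and that of all genes 0.029, in the authors' deposited table. The range between quartiles of the 51 runs from -0.19 to 0.11, and that of all genes from -0.10 to 0.17, in the authors' deposited table. These counts and medians are a description without a test.

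**Figure D1:**
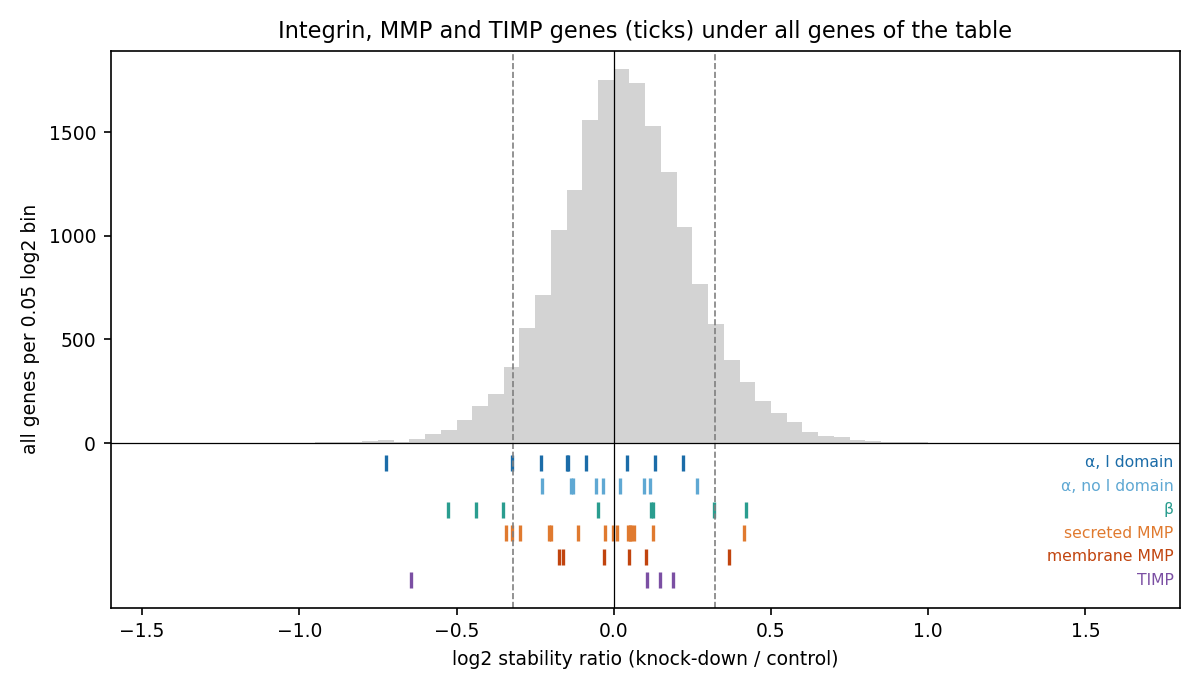
Grey bars count all 17953 genes of the authors' deposited table by log2 stability ratio (horizontal axis, knock-down over control), in bins 0.05 wide. Coloured ticks below are the 51 integrin, MMP and TIMP genes by class, and dashed lines mark log2 ratios of -0.32 and 0.32. 8 ticks lie left of the lower line and 3 right of the upper line.

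ITGA1 and TIMP4 had the lowest ratios of the 51 genes. ITGA1, the alpha subunit of a receptor for basement membrane collagen, has the lowest ratio of the 51, -0.72 on the log2 scale (0.605-fold), in the authors' deposited table, the 38th lowest of 17953 genes. TIMP4, an inhibitor best known from the heart, follows at -0.64 (0.640-fold), the 52nd lowest gene in the authors' deposited table. Both lie more than 2 error SDs from 0 on either estimate above. ITGB2, ITGB5, ITGB3 and MMP8 do so too, whereas 45 of the 51 lie within 2 error SDs of 0 when the error of undetected probes is taken. With the smaller error of probes detected on all arrays, 37 of the 51 lie within that band. The remaining 14 are 9 lower and 5 higher genes, which add ITGB7, MMP13, MMP9, ITGA10, MMP3, MMP14, ITGB1 and ITGA5 to those named. Ratios beyond the band of the smaller error are not rare among all genes. For scale, KANK1 at -0.24 stands at percentile 9.95 of all genes and ADAM17 at 0.23 at percentile 83.6, in the authors' deposited table. For the wider band, TMPRSS2 at -0.40 stands at percentile 2.57 and LAMA3 at 0.41 at percentile 95.4, in the authors' deposited table. The share of all genes beyond each band was not counted. The counts of the 51 beyond these bands are therefore a description without a test.

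**Figure D2:**
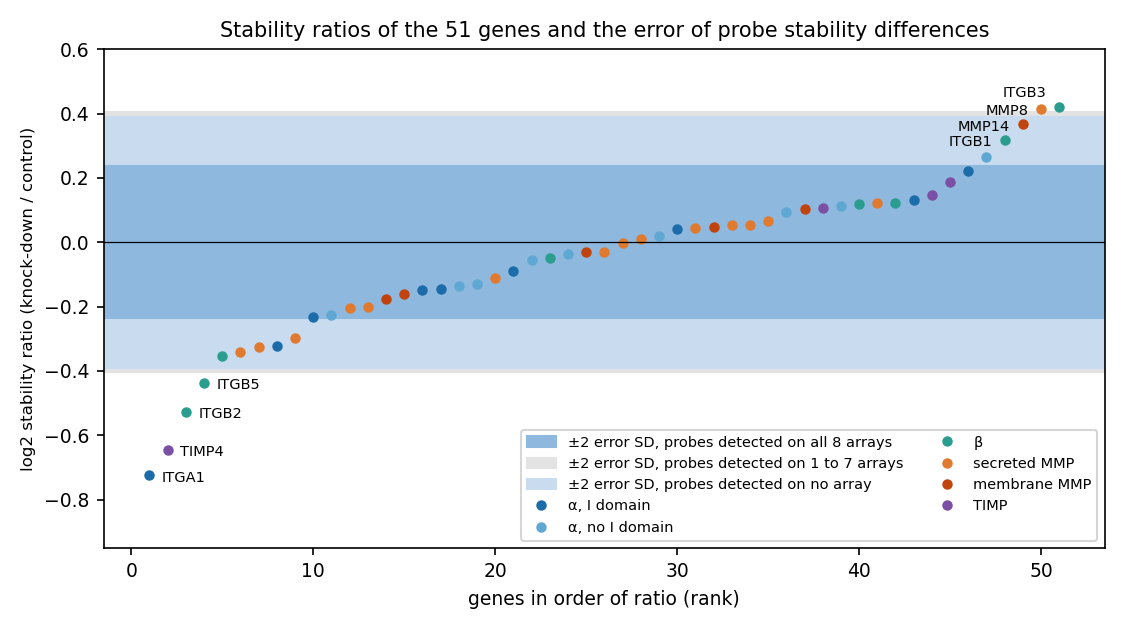
Points are the 51 genes in order of their log2 stability ratio in the authors' deposited table (vertical axis), coloured by class. Shaded bands span 2 error SDs on either side of 0, from array probes grouped by detection. ITGA1, TIMP4, ITGB2 and ITGB5 lie below all bands and ITGB3 and MMP8 above them.

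The values near the thresholds are close together. MMP9 at 0.798-fold and ITGA10 at 0.7998-fold are just below the lower threshold, and MMP3 at 0.813-fold is the first gene inside it, in the authors' deposited table. At the upper threshold MMP14 at 1.29-fold is outside and ITGB1 at 1.247-fold (log2 ratio 0.319, against a threshold of 0.322) is inside, in the authors' deposited table. These distances are smaller than the error SD of either group of probes, so the order of such neighbours is not settled by the data.

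Integrin beta subunits were the most widely spread of the integrin classes. Of the 8, 3 (37.5%) lie below the lower threshold, against 5.06% of all genes, in the authors' deposited table. Above the upper one lies 1 (12.5%), against 8.95% of all genes there. The ratios of the 8 have an SD of 0.36, against 0.22 for all genes, in the authors' deposited table. ITGB2, the shared beta subunit of the leukocyte integrins, is lowest at -0.53 (0.694-fold) in the authors' deposited table. ITGB5, which pairs with the alpha V subunit to bind vitronectin, is at -0.44 (0.738-fold) there, and ITGB7, the beta subunit of gut-homing lymphocytes, at -0.35 (0.783-fold) in the authors' deposited table. ITGB3, the partner of alpha V in adhesion to vitronectin and of alpha IIb in platelets, is the highest of the 51 genes at 0.42 (1.34-fold) in the authors' deposited table. ITGB6 and ITGB8, whose receptors activate latent TGF-beta, have almost the same log2 ratio, 0.12, in the authors' deposited table.

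ITGB1, the beta subunit with the most alpha partners, is listed with different values. Its 3 accessions have log2 ratios of 0.11, 0.32 and 0.53 in the authors' deposited table, and only the highest of them is classed there as stabilized. ITGB4, the laminin-binding subunit of hemidesmosomes, also has 3 accessions, at -0.21, -0.086 and 0.15 in the authors' deposited table. For ITGB1 all accessions lie above 0, and for ITGB4 they lie on either side of it. Which probes stand behind each accession is not given in the files, and the differences between accessions were not tested.

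The 18 alpha subunits were less widely spread than the beta subunits, apart from ITGA1. None passes the upper threshold, which 8.95% of all genes pass, in the authors' deposited table. Against 5.06% of all genes, 2 (11.1%) pass the lower one, ITGA1 and ITGA10, in the authors' deposited table. Both belong to the 9 alpha subunits that carry an inserted I domain, the module that binds collagen or leukocyte counter-receptors. The median log2 ratio of that class is -0.15, and of the 9 alpha subunits without the domain -0.036, in the authors' deposited table. The ranges of these classes overlap, from -0.72 to 0.22 with the domain and from -0.23 to 0.26 without it, in the authors' deposited table.

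All 4 alpha subunits of the collagen receptors had log2 ratios below 0, as did 7894 of all 17953 genes. Besides ITGA1, ITGA10 of cartilage is at -0.32, ITGA11 of fibroblasts at -0.23 and ITGA2, found on epithelia and platelets, at -0.089 in the authors' deposited table. The 3 laminin-binding alpha subunits are nearer to 0, with ITGA3 at -0.14, ITGA6 at -0.055 and ITGA7 of muscle at -0.036 in the authors' deposited table. Of these 7 subunits only ITGA1 and ITGA10 lie farther from 0 than 2 error SDs of detected probes. ITGA5, the fibronectin receptor subunit, is the highest alpha subunit at 0.26 (1.20-fold), while ITGA8, which also binds ligands through their RGD motif, is at -0.23 in the authors' deposited table. ITGAV, partner of 5 beta subunits, has 0.095 and ITGA2B, the platelet subunit, 0.11 in the authors' deposited table.

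**Figure D3:**
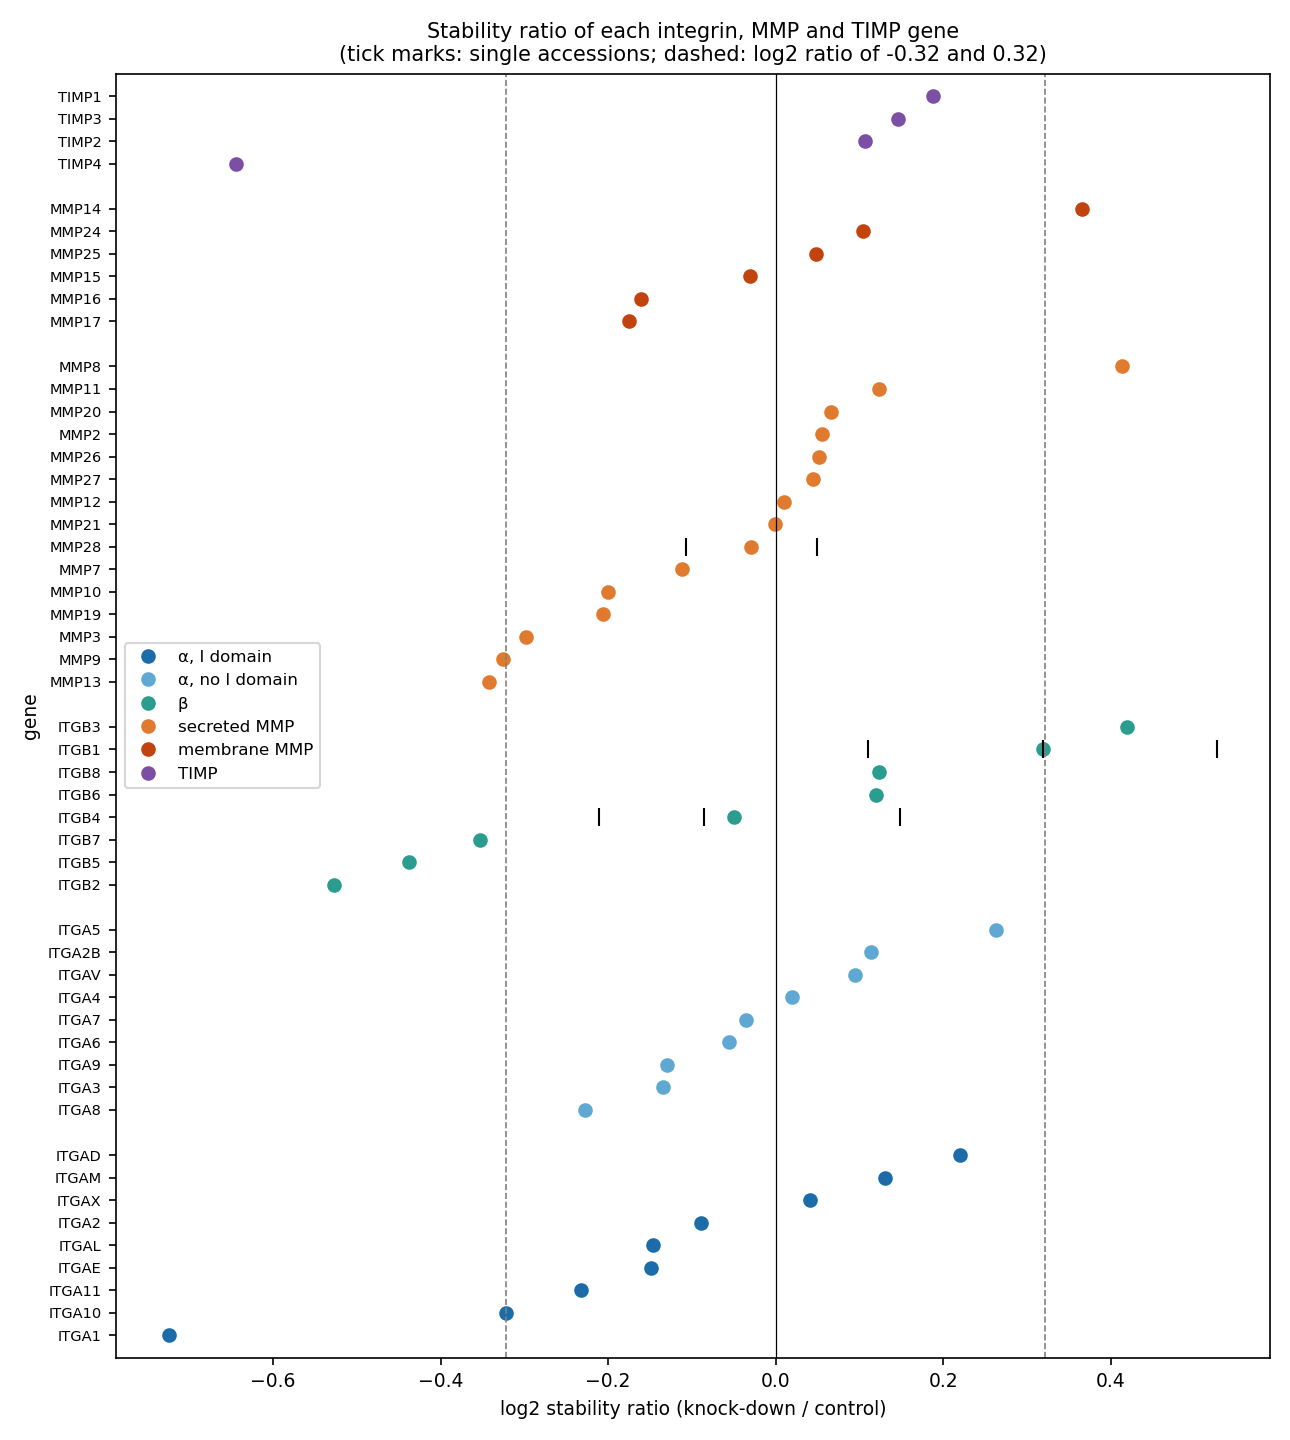
Each row is 1 of the 51 genes, placed by its log2 stability ratio in the authors' deposited table (horizontal axis) and coloured by class. Black tick marks show single accessions of ITGB1, ITGB4 and MMP28, the 3 genes with more than 1, and dashed lines mark log2 ratios of -0.32 and 0.32. The beta subunits and the alpha subunits with an I domain cover the widest ranges.

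The subunits of a receptor are set side by side by known pairing. Of 24 known human heterodimers, 14 join an alpha and a beta subunit with log2 ratios of opposite sign, 7 have both above 0 and 3 have both below 0, in the authors' deposited table. Some signs rest on ratios near 0, so which pairs share a sign depends on the setting. ITGB4 has a mean of -0.049 from single values on either side of 0. Centring on the median of all genes moves ITGA4 from 0.020 to -0.0091. Of the 51 genes, 24 lie above 0 and 27 below it in the authors' deposited table. Of the 26 integrin subunits alone, 11 lie above 0 and 15 below it, against 10059 and 7894 of all 17953 genes there. Pairs of opposite sign are therefore common without regard to pairing. The 24 pairs also reuse 18 alpha and 8 beta values, so they are not independent. ITGB1 enters 12 of them, and 9 of its alpha partners lie below 0 while ITGB1 itself is at 0.32 in the authors' deposited table. The widest gap is in the collagen receptor of ITGA1 and ITGB1, where the log2 ratios differ by 1.04 (alpha minus beta -1.04) in the authors' deposited table. In the fibronectin receptor of ITGA5 and ITGB1 the log2 ratios are 0.26 and 0.32, closer than in most pairs of the authors' deposited table.

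Receptors of the alpha V subunit differed by their beta subunit. Beside ITGAV at 0.095, the authors' deposited table lists ITGB3 at 0.42, ITGB1 at 0.32, ITGB8 and ITGB6 at 0.12, and ITGB5 at -0.44. Thus 4 of 5 partners lie above 0, as do 10059 of all 17953 genes, and ITGB5 lies below the lower threshold. Of the leukocyte receptors, the shared ITGB2 is at -0.53, the 142nd lowest of 17953 genes in the authors' deposited table. Nearly all genes thus lie above ITGB2, and so do its 4 alpha partners. These are ITGAL of LFA-1 at -0.15, ITGAX at 0.041, ITGAM of the complement receptor at 0.13 and ITGAD at 0.22 in the authors' deposited table. ITGAE, which with ITGB7 binds E-cadherin, is at -0.15, and ITGA4, the other partner of ITGB7, at 0.020 in the authors' deposited table. ITGA9, a tenascin receptor subunit, is at -0.13 in the authors' deposited table. The leukocyte subunits are normally made by blood cells, and their levels in MDA-LM2 cells could not be read here.

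**Figure D4:**
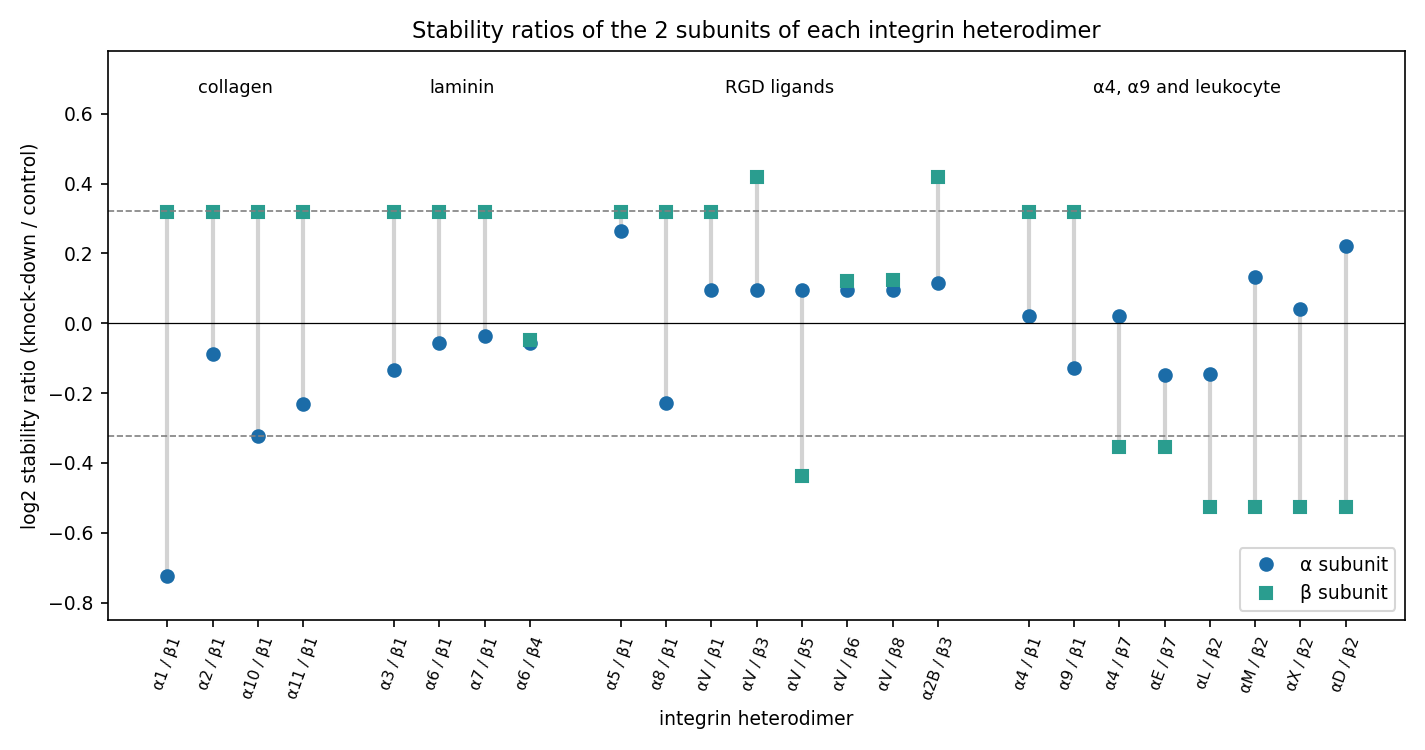
For each of 24 integrin heterodimers (horizontal axis, grouped by ligand), the circle is the log2 stability ratio of the alpha subunit and the square that of the beta subunit in the authors' deposited table; dashed lines mark log2 ratios of -0.32 and 0.32. Grey lines join the subunits of a receptor and are longest for alpha 1 with beta 1, whose subunits differ by 1.04.

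Most of the 15 secreted MMPs had ratios near 1-fold. Of these, 2 (13.3%) lie below 0.8-fold, against 5.06% of all genes, in the authors' deposited table. Above the upper threshold lies 1 (6.67%), against 8.95% of all genes there. The median log2 ratio of the 15 is -0.00084 in the authors' deposited table. MMP13, a collagenase, is lowest at -0.34 (0.789-fold), followed by the gelatinase MMP9 at -0.33 (0.798-fold) and the stromelysin MMP3 at -0.30 in the authors' deposited table. MMP19 at -0.21, the stromelysin MMP10 at -0.20 and matrilysin, MMP7, at -0.11 come next in the authors' deposited table. MMP8, the neutrophil collagenase, is the exception at the other end, with 0.41 (1.33-fold) and the stabilized class in the authors' deposited table. The next highest secreted MMP is MMP11, which furin-like proteases activate inside the cell, at 0.12 in the authors' deposited table. The other 7 secreted MMPs run from MMP28 at -0.029, the mean of accessions at -0.11 and 0.049, to MMP20 of tooth enamel at 0.066 in the authors' deposited table. Between them are MMP21, MMP12, MMP27, MMP26 and the gelatinase MMP2.

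The 6 membrane-anchored MMPs included 1 gene past a threshold, the upper one, which 8.95% of all genes pass in the authors' deposited table. MMP14, the membrane protease that activates the proenzyme of MMP2, is at 0.37 (1.29-fold) and classed as stabilized in the authors' deposited table. MMP24 at 0.10, MMP25 at 0.049 and MMP15 at -0.031 lie near 0, and MMP16 and MMP17 are at -0.16 and -0.18, in the authors' deposited table. MMP14 acts on the MMP2 proenzyme through TIMP2, which bridges them. The other genes of that complex, MMP2 at 0.055 and TIMP2 at 0.11, lie above 0 and within 1 error SD of detected probes, in the authors' deposited table.

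The TIMPs divided into 3 with ratios slightly above 1-fold and TIMP4. TIMP1, the inhibitor that pairs with the MMP9 proenzyme, is at 0.19 (1.14-fold), TIMP3, which binds to the matrix and also inhibits ADAM17, at 0.15 (1.11-fold), and TIMP2 at 0.11 (1.08-fold) in the authors' deposited table. TIMP4, at -0.64 in the authors' deposited table, is the only one past a threshold. Below that threshold lie 5.06% of all genes there. The first 3 do not differ from each other by more than the error SD of detected probes, and TIMP4 differs from them by more than the larger error SD. That SD is the error of a single ratio. The error of a difference between genes is larger, and these differences were not tested.

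Several secreted MMP genes are neighbours on chromosome 11, which gives a view of the ratios by position. In RefSeq order the run is MMP7, MMP20, MMP27, MMP8, MMP10, MMP3, MMP12 and MMP13. The log2 ratios along it are -0.11, 0.066, 0.045, 0.41, -0.20, -0.30, 0.010 and -0.34 in the authors' deposited table. The highest of the secreted MMPs, MMP8, thus lies beside MMP10 and 2 of the 3 lowest, MMP3 and MMP13, are in the same run. The neighbours ITGAM, ITGAX and ITGAD on chromosome 16 all lie above 0, at 0.13, 0.041 and 0.22 in the authors' deposited table. So do 10059 of all 17953 genes.

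MMP promoters are known for an AP-1 site close to a TATA box, and 3 genes of the run are shown: MMP7 and MMP10, with log2 ratios below 0, and MMP8, with the highest ratio of the run. The sequences are RefSeq's, build GRCh38.p14, minus strand, from 250 bases before to 50 bases after the gene's start. Capitals mark TGANTCA, the AP-1 motif, and TATAAA, each searched on both strands. They are MMP7 at chr11:102530698-102530997, MMP10 at chr11:102780579-102780878 and MMP8 at chr11:102724905-102725204.
MMP7: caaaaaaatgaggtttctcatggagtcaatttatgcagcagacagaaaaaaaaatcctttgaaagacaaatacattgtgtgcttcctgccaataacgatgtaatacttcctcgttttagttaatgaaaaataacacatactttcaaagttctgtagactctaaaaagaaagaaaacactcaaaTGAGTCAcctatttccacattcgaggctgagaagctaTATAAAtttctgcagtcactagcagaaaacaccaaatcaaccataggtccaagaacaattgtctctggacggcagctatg
MMP10: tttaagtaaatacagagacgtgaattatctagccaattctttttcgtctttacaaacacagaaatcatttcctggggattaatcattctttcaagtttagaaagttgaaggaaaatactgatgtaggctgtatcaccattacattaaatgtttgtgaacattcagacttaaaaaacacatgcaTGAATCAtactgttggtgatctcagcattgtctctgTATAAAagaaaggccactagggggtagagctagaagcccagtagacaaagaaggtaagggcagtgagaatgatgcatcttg
MMP8: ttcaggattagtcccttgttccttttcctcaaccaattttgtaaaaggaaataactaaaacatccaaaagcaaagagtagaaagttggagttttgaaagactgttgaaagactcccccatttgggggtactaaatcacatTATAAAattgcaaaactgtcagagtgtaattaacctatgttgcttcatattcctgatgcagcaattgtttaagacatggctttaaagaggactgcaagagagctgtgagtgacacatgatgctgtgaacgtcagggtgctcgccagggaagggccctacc

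The promoters of MMP7 and MMP10 both hold TGANTCA with its first base 67 bases before the start, and TATAAA 30 and 31 bases before it. That of MMP8 holds TATAAA 110 bases before the start and no TGANTCA in this window. Elsewhere in the run, the promoter of MMP20, at 0.066, holds both motifs, and that of MMP27, at 0.045, holds neither, in log2 ratios of the authors' deposited table. MMP3, MMP12 and MMP13 had no promoter sequence to search. The lowest ratios of the run, MMP13 at -0.34 and MMP3 at -0.30, are therefore not covered. The ratio of MMP7 also lies within 1 error SD of 0, and MMP10 passes no threshold. TGANTCA, which is its own reverse complement, occurs in 3 of the 11 MMP promoters, 1 of 17 integrin promoters and 5.63% of all 14378 gene promoters matched to the authors' deposited table. The motifs did not overlap in the 3 promoters shown. TATAAA occurs in 6 of 11 MMP promoters, 1 of 17 integrin promoters and 9.27% of all. The 31 of 51 genes matched to a promoter had a median GC content of 61.3% and the 11 MMP promoters 44.3%, against 63% for all. Over all genes the median log2 ratio is 0.027 with TGANTCA and 0.029 without it, and 0.0086 with TATAAA and 0.031 without it, in the authors' deposited table. The motif match is a description of sequence, and the ratio concerns stability after transcription was blocked.

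Genes that work with integrins and proteases are given for comparison from lists by function. Of 39 genes of the adhesome, the proteins that join integrins to actin and signalling, 5 (12.8%) lie above the upper and 4 (10.3%) below the lower threshold, against 8.95% and 5.06% of all genes, and the median log2 ratio is 0.072, in the authors' deposited table. The highest are KANK2, which binds talin at adhesion rims, at 1.66-fold, the adaptor CRK at 1.35-fold and ITGB1BP1, a binder of the ITGB1 tail, at 1.29-fold in the authors' deposited table. LPP at 0.734-fold, TGFB1I1 at 0.745-fold and the kindlin FERMT1 at 0.767-fold are the lowest in the authors' deposited table. Talin itself, TLN1, is at 0.806-fold, and focal adhesion kinase, PTK2, at 1.05-fold in the authors' deposited table.

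Of 36 matrix and cell-surface ligands of integrins, 4 (11.1%) lie above the upper and 1 (2.78%) below the lower threshold, close to the 8.95% and 5.06% of all genes, with a median of 0.030, in the authors' deposited table. THBS1 at 1.36-fold, NPNT, which encodes the ITGA8 ligand nephronectin, at 1.35-fold, and CCN1 at 1.34-fold are the highest in the authors' deposited table. ICAM1, a ligand of ITGB2 receptors, is the lowest at 0.784-fold, followed by NID1 at 0.803-fold and LAMA4 at 0.818-fold in the authors' deposited table. Fibronectin, FN1, is at 1.02-fold in the authors' deposited table, beside its receptor subunits ITGA5 at 1.20-fold and ITGB1 at 1.247-fold.

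Of 33 genes of other pericellular proteolysis, 2 (6.06%) lie above the upper and 3 (9.09%) below the lower threshold, against 8.95% and 5.06% of all genes, with a median of 0.061, in the authors' deposited table. ADAMTS9, a protease of proteoglycans, is at 1.47-fold, LRP1, an endocytic receptor that clears proteases, at 1.37-fold and ADAM8 at 1.21-fold, the highest in the authors' deposited table. RECK, a membrane inhibitor of MMPs, is lowest at 0.723-fold, then PLAU, the urokinase gene, at 0.735-fold and TMPRSS2 at 0.757-fold in the authors' deposited table. BSG, known as an inducer of MMPs, is at 1.20-fold as a mean of accessions in the authors' deposited table. The inhibitors RECK and TIMP4 thus both lie below 0.8-fold, and TIMP1, TIMP2 and TIMP3 above 1-fold.

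**Figure D5:**
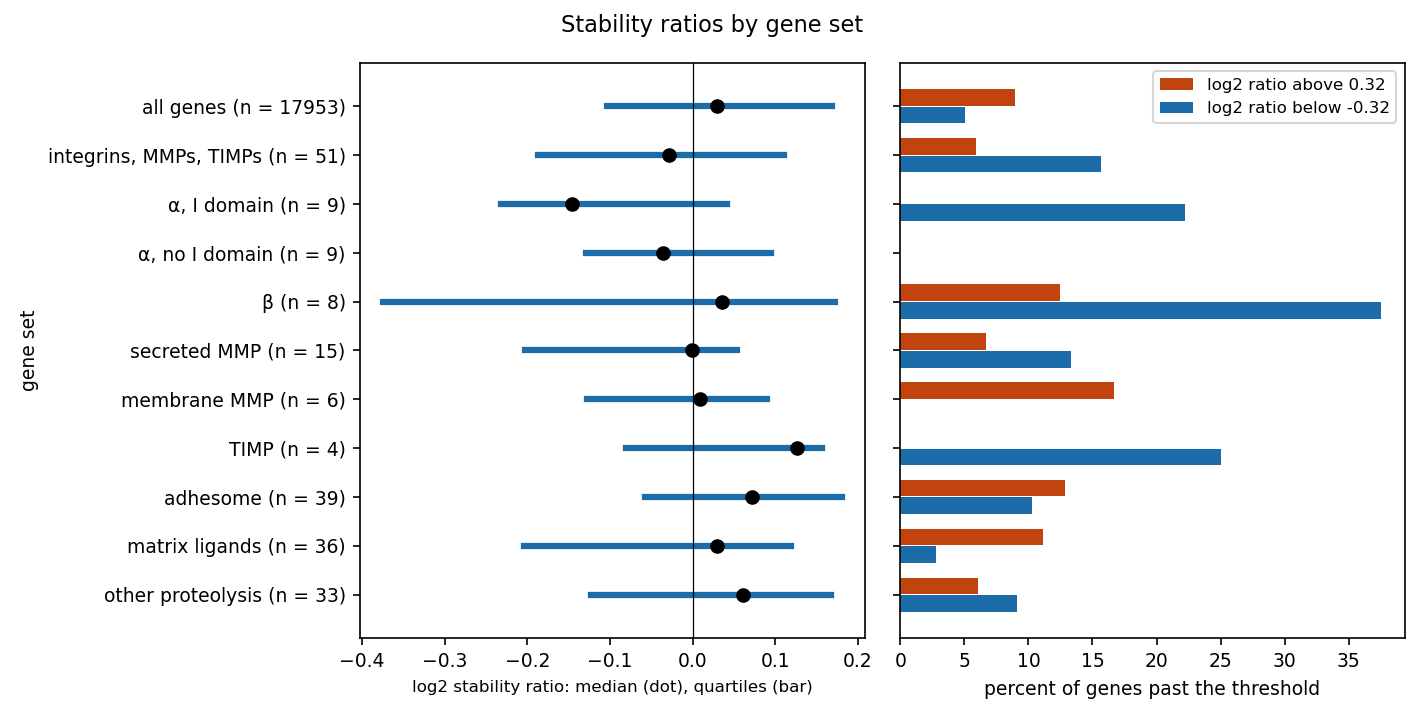
Left, the median (dot) and quartiles (bar) of the log2 stability ratio in the authors' deposited table for all genes, the 51 genes, their 6 classes and 3 lists of related genes. Right, the percent of genes with a log2 ratio above 0.32 and below -0.32 in each. Below 0.8-fold lie 37.5% of the 8 beta subunits and 5.06% of all genes.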

How the data were processed

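Total RNA of 8 samples was labelled and measured on Illumina BeadChip arrays. Per its file header, a table the authors deposited holds the log2 ratio of stability for each accession, with a class. The class was found to be a threshold: the highest background value is 0.3219 and the lowest stabilized one 0.3220. The authors also deposited intensity values, non-normalized and normalized between arrays, with a detection p-value per probe, per the file headers. Per the submitters' processing notes lumi was used; its settings are not given.

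Accessions with the NM prefix were named through RefSeq (GRCh38.p14, names only), version suffixes removed: 20865 of 22771 matched 1 symbol. With no replicates behind a ratio, no test was made, and genes are described by value, rank and counts past log2 ratios of 0.322 and -0.322. The error SD is the root mean square deviation of the 2 replicate stability differences from their mean (log2 of the authors' normalized intensity, no offset). Pairing arrays by number or crosswise gave 0.118 and 0.119 for detected probes. The calculation was tested on simulated data. Arrays of a group shared at most 0.33% of equal signals, so none was taken as a duplicate. Nothing in the labels says that control arrays came from separate cultures.

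The genes and lists were chosen with earlier results of these data known. Named with values are genes past a threshold, genes with split accessions, the ends of each class, all TIMPs, partner subunits, and the 3 highest and lowest of each related list; others were added after their values were seen. 1 further MMP gene is not reported here. The alternatives tried were the first accession, the median over distinct values, centring on all genes, a 1.5-fold threshold and counting accessions. Python 3.11.15, pandas 2.3.3 and numpy 2.4.6 were used.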

Additional observations from a re-analysis of the deposited data

How the results depend on the processing

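The count of genes above the upper threshold was 3 with the first accession of each gene, with the median over distinct values and after centring on the median of all genes, and 4 when single accessions were counted, which adds 1 accession of ITGB1. The count below 0.8-fold was 8 under these settings except centring, where MMP3 joined at -0.33 on the log2 scale and it was 9. With a 1.5-fold threshold 0 genes were higher and 2 lower, ITGA1 and TIMP4, because the threshold is farther from 1-fold. Except for single accessions, the shares of all genes under these alternatives were not counted. Whether the 51 genes differ from all genes under them is therefore not shown. The median log2 ratio of the 51 genes ran from -0.058 (centred) to -0.00084 (first accession). With the first accession alone ITGB1 was at 0.11 and ITGB4 at 0.15. The other 49 genes kept their value within the error SD of all probes, 0.18. No paired analysis was possible because the ratios come from no test and have no replicates. The planned fits of the arrays for these genes, with their alternatives of normalization, filter, replicate block and left-out arrays, were not run, since probes carry no gene names. The signal over background behind each ratio is unknown; over all array probes, 58.2% were detected on no array.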
